A study of Homo sapiens with 11 samples.

Results

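The genes described here supply a cell with amino acids and load them onto tRNA. They are 34 genes in 3 roles, namely 9 enzymes of amino acid and one-carbon synthesis, 7 transporters of the plasma membrane and 18 cytosolic aminoacyl-tRNA synthetases, and they were chosen by name and not by their values. Of these, 30 were measured among the 17372 genes tested, made up of 8 enzymes, 6 transporters and 16 synthetases. The other 4, MTHFD2, SLC3A2 and CARS1 among them, were not analysed here. All measured members exceeded the 95th percentile of the negative controls in 11 of 11 samples, except SLC6A9, which exceeded it in 7.

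Gene expression was profiled on Agilent whole human genome arrays in CCRF-CEM cells, which derive from a human T cell leukemia, and in sublines of it that were selected for growth in the proteasome inhibitor bortezomib (BTZ). Parental cells exposed to 7 nM BTZ for 24 h (CEM/WT_BTZ) had 3 samples, the resistant subline CEM/BTZ7 in 7 nM had 3, CEM/BTZ100 in 100 nM and CEM/BTZ200 in 200 nM had 1 each, CEM/BTZ-200, which is CEM/BTZ200 grown on without drug, had 1, and untreated parental CEM/WT had 2. The sources differ on the time before RNA isolation, since the sublines either stayed in BTZ with a fresh dose 24 h before (labels) or given a drug-free interval before the 24 h exposure (methods), and CEM/BTZ-200 had been without BTZ for several weeks (methods) or months (labels). Each subline is a single selected culture, no source used here says whether replicates were separate cultures, and p-values therefore reflect only the variation among these samples, possibly technical. A group of 1 sample borrows the spread of the other groups.

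A cell that runs short of an amino acid accumulates uncharged tRNA, which activates the kinase GCN2 (gene EIF2AK4). GCN2 phosphorylates the initiation factor eIF2, general translation slows, and translation of the transcription factor ATF4 increases. Together with C/EBP partners ATF4 switches on genes for amino acid synthesis, uptake and tRNA charging, and unfolded protein in the endoplasmic reticulum reaches the same factor through the kinase PERK (EIF2AK3). Proteasomes also feed this supply, because the proteins they degrade return amino acids to the pool.

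Levels are log2 quantile-normalized intensities, and a member is compared between samples by 1 probe at a time, never with another gene. A member is called when its adjusted p from limma over all 17372 genes is under 0.05. Median raw intensity was 67.96 in CEM/BTZ200 and 67.3 in CEM/BTZ-200, against 124 to 188.5 in the other 9 samples. All 12 T lymphoblast markers examined (CD3E, CD7, LCK and PTCRA among them) exceeded background in all 11 samples. Of 6 epithelial genes, CDH1 exceeded background in none, and EPCAM was called higher in each of the resistant sublines than in CEM/WT. In RNA from whole cultures, fewer cells with a transcript and less of it per cell cannot be told apart.

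After 24 h in 7 nM BTZ, 3 of the 30 members were called higher in CEM/WT_BTZ than in CEM/WT, against 6.54% of all genes, and 0 were called lower, against 9.08% of all genes. The 3 were the enzymes ASNS and CTH and the synthetase WARS1. The median log2 fold change was 0.06 over the members and -0.02 over all genes, and 19 members had a positive value. Without replicate 1 of CEM/WT the members' median was 0.50, and without replicate 2 of CEM/WT it was -0.02. Each of these fits left 1 sample in CEM/WT, and the 3 calls were lost. Without replicate 3 of CEM/WT_BTZ the members' median was -0.09, with 1 member called higher and 1 lower. The calls of ASNS and WARS1 were lost there. In the resistant subline CEM/BTZ7, 3 members (PYCR1, QARS1 and VARS1) were called higher than in CEM/WT_BTZ and 2 (ASNS and WARS1) lower, against 12.2% and 10.1% of all genes. The median of that comparison was -0.11 over the members and 0.01 over all genes, and it was 0.12 without replicate 3 of CEM/WT_BTZ and -0.46 without replicate 3 of CEM/BTZ7.

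Relative to untreated CEM/WT, 1 member was called higher in CEM/BTZ7 and 0 lower, against 1.95% and 1.58% of all genes. The same single call was made in CEM/BTZ100 (all genes 1.14% higher and 1.57% lower), in CEM/BTZ200 (1.27% and 1.82%) and in CEM/BTZ-200 (1.38% and 1.8%), and the gene was CTH each time. These 4 comparisons share the 2 CEM/WT samples. Between CEM/BTZ200 and CEM/BTZ-200 limma called 0 members in either direction, against 0.0288% of all genes higher and 0.311% lower. At an unadjusted p under 0.05, 1 member was higher and 1 lower, and 1864 of the 17372 genes passed in either direction.

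T lymphoblast markers moved in the same comparisons. Of the 12, 6 were called lower and 0 higher in CEM/WT_BTZ than in CEM/WT, and 6 higher and 0 lower in CEM/BTZ7 than CEM/WT_BTZ. Their summed level, in which the brightest probes weigh most, ranged from 16.43 to 16.83 (log2) in CEM/WT_BTZ, from 16.88 to 16.98 in CEM/BTZ7 and from 16.86 to 17.19 in CEM/WT, and was 16.39 in CEM/BTZ100, 16.97 in CEM/BTZ200 and 16.98 in CEM/BTZ-200. Among B cell markers, CD79A had 14.54, 15.12 and 14.02 in CEM/WT_BTZ and 12.85, 12.99 and 12.19 in CEM/BTZ7, against 13.14 and 13.59 in CEM/WT, and made up nearly all of the list's summed level (14.05 to 15.14 in CEM/WT_BTZ). CD79B ran the other way, with 6.6, 7.25 and 7.31 in CEM/WT_BTZ against 8.44 and 9.04 in CEM/WT. Among myeloid markers, CSF1R varied widely, with 5.27, 6.84 and 7.73 in CEM/WT_BTZ and 4.39, 9.74 and 11.04 in CEM/BTZ7, against 10.32 and 9.89 in CEM/WT, while CD14 stayed between 6.79 and 7.82 in all 11 samples. The range of the myeloid sum was 8.85 to 9.09 in CEM/WT_BTZ, 8.45 to 11.23 in CEM/BTZ7 and 10.41 to 10.73 in CEM/WT. Their part in the members' results was not tested.

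**Figure D1:**
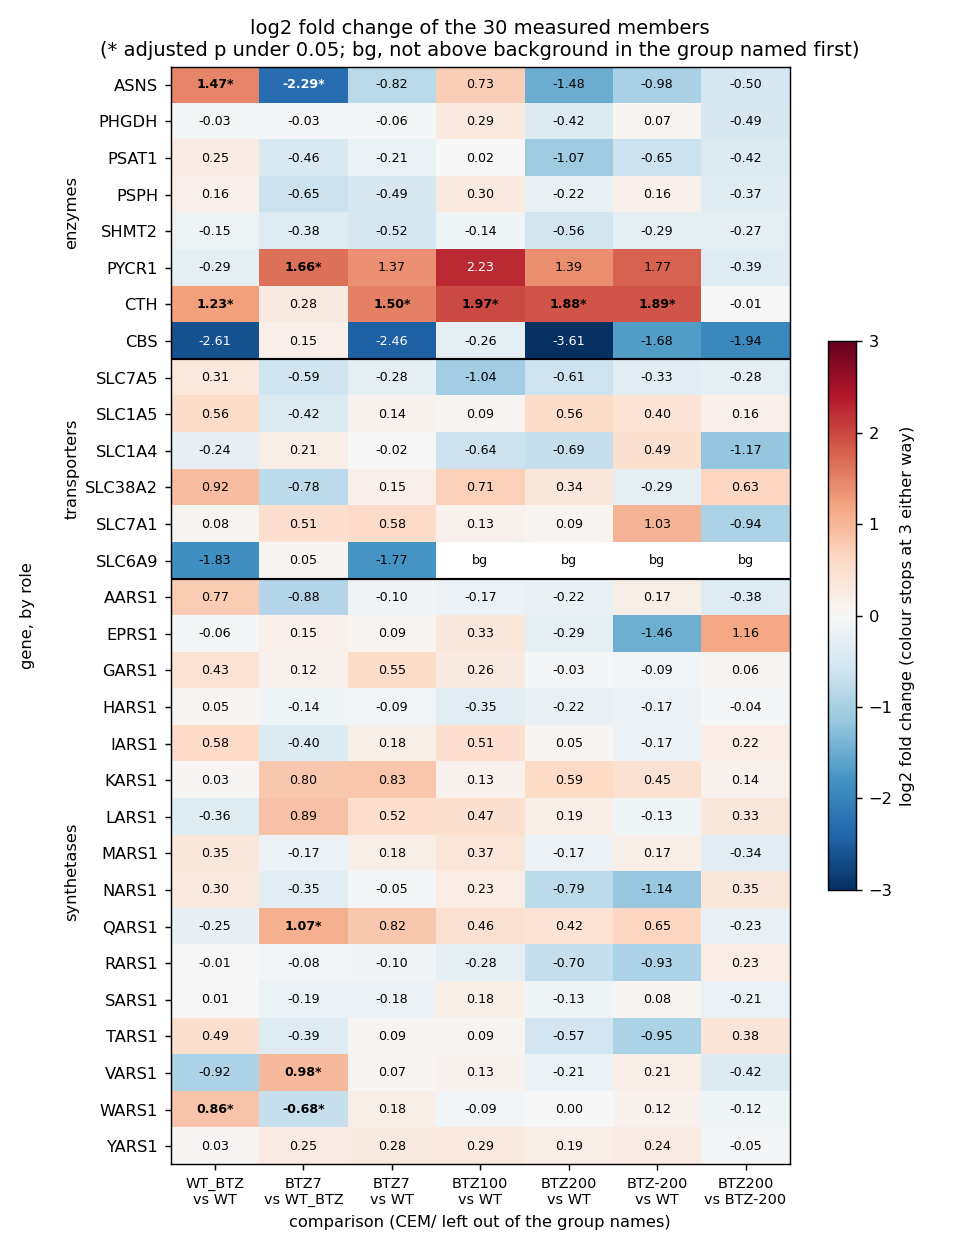
Log2 fold change of each of the 30 measured members (rows, by role) in 7 comparisons (columns), with colour for the value and an asterisk for an adjusted p under 0.05; bg marks SLC6A9 where it did not exceed background in the group named first. ASNS is called in opposite directions in the first 2 columns (1.47 and -2.29), and CTH is called higher in each of the 5 groups compared with CEM/WT.

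The enzymes held the largest called changes of the members. ASNS makes asparagine from aspartate and glutamine and is a textbook target of ATF4. Its level was 13.43, 13.51 and 13.64 in CEM/WT_BTZ, 10.73, 10.96 and 11.76 in CEM/BTZ7, 12.86 in CEM/BTZ100, 10.66 in CEM/BTZ200 and 10.91 in CEM/BTZ-200, against 11.97 and 12.05 in CEM/WT. The 3 BTZ-treated parental samples lay above all others, and CEM/BTZ100 was the only resistant sample above CEM/WT. ASNS rose 2.78-fold in CEM/WT_BTZ relative to CEM/WT (log2 fold change 1.47, SE 0.304, adjusted p = 0.0248), and it was 4.9-fold lower in CEM/BTZ7 than CEM/WT_BTZ at the same drug concentration (log2 fold change -2.29, SE 0.282, adjusted p = 0.00381).

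Against CEM/WT, ASNS did not pass the threshold in CEM/BTZ7 (log2 fold change -0.82, adjusted p = 0.273), CEM/BTZ100 (0.73, adjusted p = 0.53), CEM/BTZ200 (-1.48, adjusted p = 0.159) or CEM/BTZ-200 (-0.98, adjusted p = 0.285). In the fit with the replicate number as a block, which the single samples could not enter because their labels carry no number, ASNS was called lower in CEM/BTZ7 (-0.99, adjusted p = 0.0355). The fall in CEM/BTZ7 relative to CEM/WT_BTZ was called in 18 of 18 alternative settings (-2.77 to -2). The rise in CEM/WT_BTZ was called in 12 of 18 (1.22 to 1.68, adjusted p at most 0.216), and was lost without either CEM/WT replicate, any CEM/WT_BTZ replicate or replicate 2 of CEM/BTZ7.

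The start region of ASNS is shown because it holds a C/EBP-ATF composite motif, the kind of site at which ATF4 is known to act on this gene. The sequence is the RefSeq window of GRCh38.p14 at chr7:97872359-97872658, minus strand, from 250 bases before to 50 bases after the first of 2 listed start sites, and capitals mark the match to TGATGNAA.
ASNS: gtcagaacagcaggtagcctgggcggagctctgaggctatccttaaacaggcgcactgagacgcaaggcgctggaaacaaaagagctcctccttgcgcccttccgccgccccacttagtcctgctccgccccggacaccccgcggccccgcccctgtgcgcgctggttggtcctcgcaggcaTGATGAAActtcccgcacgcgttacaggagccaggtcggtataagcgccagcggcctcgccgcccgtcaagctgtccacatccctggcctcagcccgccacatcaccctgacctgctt
The match begins 68 bases before the start. The letters TGATGNAA on either strand occur in 4.46% of the 27305 genes with such a window.

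CTH, cystathionine gamma-lyase, releases cysteine from cystathionine in the transsulfuration pathway. It had levels of 9.08, 9.09 and 9.16 in CEM/WT_BTZ, 9.27, 9.28 and 9.48 in CEM/BTZ7, 9.90 in CEM/BTZ100, 9.81 in CEM/BTZ200 and 9.69 in CEM/BTZ-200, against 8.01 and 7.71 in CEM/WT. All 9 treated or resistant samples were above both CEM/WT samples, and CEM/BTZ-200, which grew without drug, was among them. CTH was called higher than in CEM/WT in CEM/WT_BTZ (log2 fold change 1.23, SE 0.182, adjusted p = 0.00998) and in CEM/BTZ7 (1.5, SE 0.182, adjusted p = 0.00922). It was also called in CEM/BTZ100 (1.97, adjusted p = 0.017), CEM/BTZ200 (1.88, adjusted p = 0.0147) and CEM/BTZ-200 (1.89, adjusted p = 0.0214).

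CTH in CEM/BTZ7 did not pass the threshold against CEM/WT_BTZ (log2 fold change 0.28, SE 0.169, adjusted p = 0.296), although the 3 values of CEM/BTZ7 were all above the 3 of CEM/WT_BTZ. Leaving out either CEM/WT replicate ended the CTH call in each comparison with CEM/WT, as did a fit of only the 2 groups for CEM/WT_BTZ. The adjusted p without a CEM/WT replicate was at most 0.0825 in CEM/WT_BTZ and 0.154 in CEM/BTZ7, with log2 fold changes of 1.02 to 1.36 and 1.24 to 1.61 over all settings. The calls in CEM/BTZ7, CEM/BTZ100, CEM/BTZ200 and CEM/BTZ-200 were also lost without replicate 2 of CEM/BTZ7. That of CEM/BTZ-200 was lost without replicate 1 of CEM/BTZ7 or of CEM/WT_BTZ as well (1.56 to 1.98 over 15 settings).

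The window of CTH is shown as the member called most often, at chr1:70411018-70411317, plus strand, of the same build.
CTH: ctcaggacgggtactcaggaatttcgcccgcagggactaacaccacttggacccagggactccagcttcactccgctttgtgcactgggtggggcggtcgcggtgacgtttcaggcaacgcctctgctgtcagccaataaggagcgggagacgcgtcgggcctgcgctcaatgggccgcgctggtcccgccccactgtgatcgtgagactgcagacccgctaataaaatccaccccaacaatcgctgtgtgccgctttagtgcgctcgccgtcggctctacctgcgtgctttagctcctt
It has no capitals because TGATGNAA is not in these letters on either strand, which says nothing about the factor itself.

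PYCR1, which completes proline synthesis in the mitochondrion, had levels of 13.56, 13.80 and 14.16 in CEM/BTZ7 and of 11.55, 11.90 and 12.76 in CEM/WT_BTZ, and the groups did not overlap. It was called higher in CEM/BTZ7 than CEM/WT_BTZ (log2 fold change 1.66, SE 0.348, adjusted p = 0.0195), a 3.16-fold difference. CEM/BTZ100 had 14.48, CEM/BTZ200 had 13.64 and CEM/BTZ-200 had 14.34, against 12.19 and 12.63 in CEM/WT, so that every resistant sample exceeded every parental one with or without the drug. Relative to CEM/WT the log2 fold changes were 1.37 in CEM/BTZ7, 2.23 in CEM/BTZ100, 1.39 in CEM/BTZ200 and 1.77 in CEM/BTZ-200, none past the threshold (adjusted p from 0.0953 to 0.287). With the replicate block the difference of CEM/BTZ7 was called (1.13, adjusted p = 0.0209), and PYCR1 was called lower in CEM/WT_BTZ than in CEM/WT (-0.55, adjusted p = 0.0275, against -0.29 and 0.66 without the block). The call in CEM/BTZ7 against CEM/WT_BTZ was lost in 4 of 18 settings, which were the mean of the 2 PYCR1 probes and leaving out replicate 2 of CEM/WT_BTZ or replicate 2 or 3 of CEM/BTZ7 (adjusted p at most 0.0791). The dimmer probe gave 1.12 (adjusted p = 0.165).

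CBS, the enzyme that makes the cystathionine on which CTH acts, had the widest spread between replicates. Its level was 8.51, 9.08 and 13.23 in CEM/WT_BTZ and 9.41, 10.18 and 12.43 in CEM/BTZ7, against 12.81 and 13.21 in CEM/WT. Replicate 3 of both drug-treated groups lay near the CEM/WT samples, whereas replicates 1 and 2 lay far below them. The single samples had 12.36 in CEM/BTZ100, 9.01 in CEM/BTZ200 and 11.71 in CEM/BTZ-200. A second, dimmer CBS probe had the same order within the triplicates, with 5.02, 5.16 and 8.64 in CEM/WT_BTZ and 5.89, 6.53 and 7.89 in CEM/BTZ7, against 7.69 and 8.46 in CEM/WT.

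The log2 fold change of CBS was -2.61 in CEM/WT_BTZ relative to CEM/WT (SE 1.51, adjusted p = 0.298) and -2.46 in CEM/BTZ7 relative to CEM/WT (SE 1.51, adjusted p = 0.546), and neither was called. With the replicate block, CBS was called lower in CEM/WT_BTZ (-3.8, adjusted p = 0.00823) and CEM/BTZ7 (-3.62, adjusted p = 0.0196), both relative to CEM/WT. CEM/WT has no replicate 3, so both block differences rest mainly on replicates 1 and 2, the low ones. The replicate 3 values near CEM/WT (13.23 and 12.43) count little in them.

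**Figure D2:**
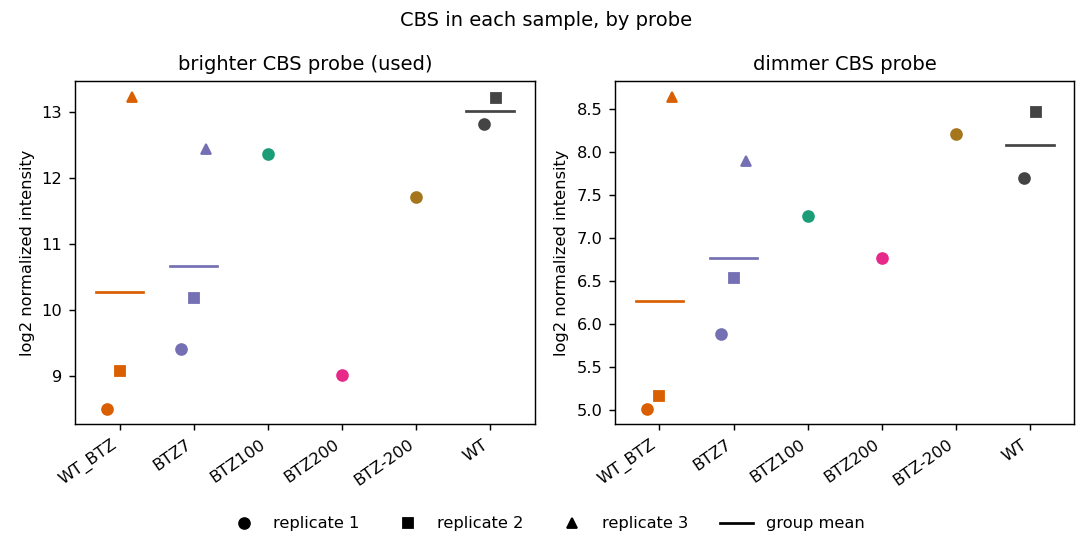
Log2 normalized intensity of CBS in each sample by its 2 probes (left and right), with groups along the horizontal axis, symbols for the replicate number and a line at each group mean. In CEM/WT_BTZ and CEM/BTZ7 the triangle (replicate 3) stands apart from replicates 1 and 2 on both probes.

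The serine and one-carbon branch was not called in any of the 7 comparisons. PHGDH, PSAT1 and PSPH carry out the steps from a glycolytic intermediate to serine, and SHMT2 turns serine into glycine in the mitochondrion. Their log2 fold changes in CEM/WT_BTZ relative to CEM/WT were -0.03, 0.25, 0.16 and -0.15, with levels of PHGDH of 13.53, 13.88 and 14.14 in CEM/WT_BTZ against 13.90 and 13.80 in CEM/WT. PSPH had 11.95, 12.09 and 12.17 in CEM/BTZ7, all below the 12.47, 12.50 and 13.05 of CEM/WT_BTZ (log2 fold change -0.65, adjusted p = 0.0759). With the replicate block, PSPH (-0.65, adjusted p = 0.0199) and PSAT1 (-0.51, adjusted p = 0.0228) were called lower in CEM/BTZ7 than CEM/WT_BTZ. Relative to CEM/WT, PSAT1 had a log2 fold change of -1.07 in CEM/BTZ200 (adjusted p = 0.29) and of -0.65 in CEM/BTZ-200 (adjusted p = 0.478).

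**Figure D3:**
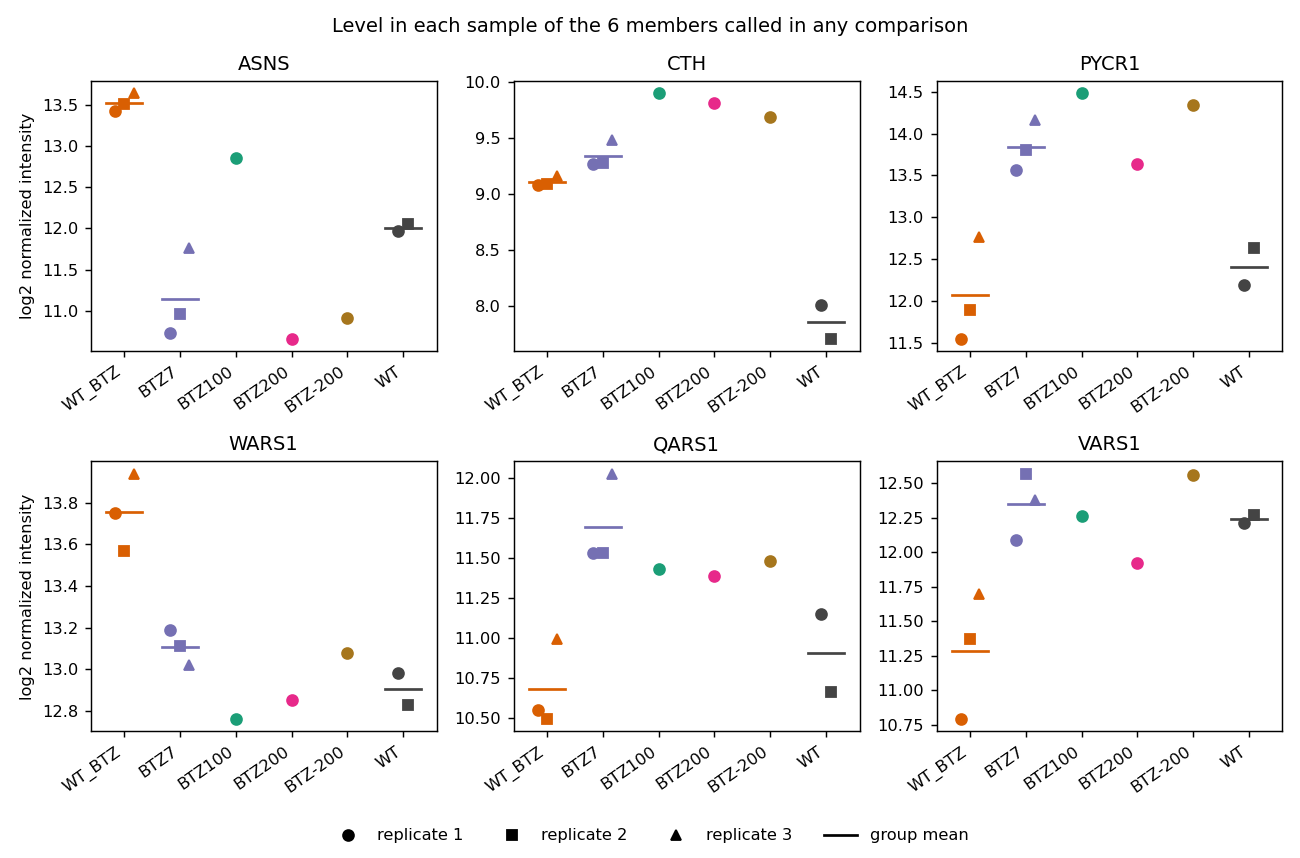
Log2 normalized intensity of the 6 members called in any comparison, 1 panel each, with groups along the horizontal axis, symbols for the replicate number and a line at the mean of each group of more than 1 sample. ASNS and WARS1 peak in CEM/WT_BTZ, CTH is lowest in CEM/WT, and PYCR1 and QARS1 are higher in all resistant samples than in all parental ones.

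None of the 6 measured transporters was called by limma in any of the 7 comparisons. At an unadjusted p under 0.05, 1 was higher and 1 lower in CEM/WT_BTZ than in CEM/WT, and 0 were higher and 1 lower in CEM/BTZ7 than CEM/WT_BTZ. Of the 17372 genes, 5467 and 6256 passed that limit in these comparisons, in either direction. SLC38A2, a sodium-coupled importer of small neutral amino acids, had 13.75, 13.42 and 12.69 in CEM/WT_BTZ and 12.58, 12.19 and 12.25 in CEM/BTZ7, against 12.72 and 11.84 in CEM/WT. CEM/BTZ7 lay below CEM/WT_BTZ throughout, while CEM/WT_BTZ and CEM/WT overlapped by 1 sample. The log2 fold change was 0.92 in CEM/WT_BTZ relative to CEM/WT (SE 0.321, adjusted p = 0.104) and -0.78 in CEM/BTZ7 relative to CEM/WT_BTZ (SE 0.297, adjusted p = 0.113). Its other 2 probes gave 0.97 and 0.73, then -0.66 and -0.84, and the last of these, from the dimmest probe, was past the threshold (adjusted p = 0.0368 over all probes). With the replicate block both differences were called (1.11, adjusted p = 0.00885, and -0.81, adjusted p = 0.00813).

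SLC7A5 (LAT1), the leucine and large neutral amino acid exchanger, had 13.52, 13.56 and 13.77 in CEM/BTZ7, just below the 14.22, 13.78 and 14.61 of CEM/WT_BTZ (log2 fold change -0.59, adjusted p = 0.192). Its dimmer probe gave -1.15 in that comparison (adjusted p = 0.0262 over all probes), so the probes differed in the call and not in direction. In CEM/WT_BTZ relative to CEM/WT the brighter SLC7A5 probe gave 0.31 (adjusted p = 0.55). The dimmer one gave 0.89 there (adjusted p = 0.085 over all probes). SLC7A1, the cationic amino acid transporter for arginine and lysine, had 12.30, 12.34 and 12.28 in CEM/BTZ7 and 12.75 in CEM/BTZ-200, above the 11.92, 11.43 and 12.06 of CEM/WT_BTZ and the 12.03 and 11.42 of CEM/WT. The log2 fold change was 0.51 in CEM/BTZ7 relative to CEM/WT_BTZ (adjusted p = 0.226) and 1.03 in CEM/BTZ-200 relative to CEM/WT (adjusted p = 0.231). The dimmer SLC7A1 probe gave 0.29 and 0.58. On the probe used, CEM/BTZ100 (11.86) and CEM/BTZ200 (11.82) lay within the range of the parental samples. Relative to CEM/WT the dimmer probe gave -0.01 in CEM/BTZ100 and 0.84 in CEM/BTZ200. CEM/BTZ100 was thus not higher on either probe, and for CEM/BTZ200 the probes differed.

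The glutamine carrier SLC1A5 (ASCT2) had 11.67, 12.02 and 11.80 in CEM/WT_BTZ against 11.37 and 11.04 in CEM/WT, without overlap and without a call (log2 fold change 0.56, adjusted p = 0.204). SLC1A4 (ASCT1), a carrier of alanine, serine and cysteine, had a log2 fold change of -0.24 in that comparison (adjusted p = 0.616). On its dimmer probe SLC1A4 had 0.45 (adjusted p = 0.574 over all probes), so the direction depended on the probe. It stood at 9.57 in CEM/BTZ200 against 10.94 in CEM/BTZ-200 (log2 fold change -1.17, adjusted p = 0.452). The glycine carrier SLC6A9 (GLYT1) was dim, with 2.68, 3.79 and 3.96 in CEM/WT_BTZ against 4.71 and 6.08 in CEM/WT (log2 fold change -1.83, adjusted p = 0.0529), and the first of these values did not exceed background. It did not exceed background in CEM/BTZ100, CEM/BTZ200 or CEM/BTZ-200. Each of those samples was taken at its lowest detectable signal, or at its own signal where that was higher. The mean log2 level of CEM/WT (5.4) was at least 4.35-fold, 2.65-fold and 2.12-fold above these. Replicate 1 of CEM/WT (4.71) lay below that mean, and for it the factors are smaller.

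Of the 16 measured synthetases, each of which joins an amino acid to its tRNA, 1 was called higher and 0 lower in CEM/WT_BTZ than in CEM/WT, against 6.54% and 9.08% of all genes, and their median difference was 0.04 on the log2 scale. The called one was WARS1, the tryptophanyl enzyme, which interferon is also known to induce. WARS1 had 13.75, 13.57 and 13.94 in CEM/WT_BTZ and 13.19, 13.11 and 13.02 in CEM/BTZ7, against 12.98 and 12.83 in CEM/WT, and CEM/WT_BTZ lay above all other samples. It rose in CEM/WT_BTZ relative to CEM/WT (log2 fold change 0.86, SE 0.192, adjusted p = 0.0309) and was lower in CEM/BTZ7 than CEM/WT_BTZ (-0.68, SE 0.178, adjusted p = 0.0383). CEM/BTZ100 had 12.76, CEM/BTZ200 had 12.85 and CEM/BTZ-200 had 13.08, around the values of CEM/WT. These calls held in 10 and 8 of 18 settings, with adjusted p at most 0.182 and 0.144, and both were lost in a fit of only the 2 groups compared, without either CEM/WT replicate, without any CEM/WT_BTZ replicate and without replicate 1 or 2 of CEM/BTZ7, the second also without replicate 3 of CEM/BTZ7 and with the dyes of CEM/BTZ7 taken from the deposited log2 values.

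QARS1 and VARS1, the glutaminyl and valyl enzymes, were called higher in CEM/BTZ7 than CEM/WT_BTZ. QARS1 had 11.53, 11.53 and 12.03 in CEM/BTZ7 against 10.55, 10.49 and 10.99 in CEM/WT_BTZ (log2 fold change 1.07, SE 0.26, adjusted p = 0.0311). The other resistant samples had 11.43 in CEM/BTZ100, 11.39 in CEM/BTZ200 and 11.48 in CEM/BTZ-200, above the 11.15 and 10.66 of CEM/WT, so QARS1 was higher in every resistant sample than in every parental one. VARS1 had 12.09, 12.57 and 12.38 in CEM/BTZ7 against 10.79, 11.37 and 11.70 in CEM/WT_BTZ (log2 fold change 0.98, SE 0.274, adjusted p = 0.0471). Untreated CEM/WT had 12.21 and 12.27, close to CEM/BTZ7, and VARS1 had a log2 fold change of -0.92 in CEM/WT_BTZ relative to CEM/WT (adjusted p = 0.0853, and -1.04 with adjusted p = 0.0337 with the replicate block). QARS1 kept its call in 10 and VARS1 in 9 of 18 settings (adjusted p at most 0.168 and 0.22), and both lost it in a fit of the 2 groups alone and without either CEM/WT replicate, replicate 1 or 2 of CEM/WT_BTZ, or replicate 2 or 3 of CEM/BTZ7. QARS1 also lost it without replicate 1 of CEM/BTZ7, and VARS1 with scaling to the 75th percentile and with the dyes of CEM/BTZ7 taken from the deposited log2 values.

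AARS1, the alanyl enzyme, had 11.37, 11.49 and 11.92 in CEM/WT_BTZ and 10.28, 10.37 and 11.25 in CEM/BTZ7, against 10.95 and 10.60 in CEM/WT, with CEM/WT_BTZ above both other groups. Its log2 fold changes of 0.77 in CEM/WT_BTZ relative to CEM/WT and of -0.88 in CEM/BTZ7 relative to CEM/WT_BTZ were not called (adjusted p = 0.182 and 0.0972) and were called with the replicate block (0.54, adjusted p = 0.034, and -0.87, adjusted p = 0.00852). IARS1, the isoleucyl enzyme, was called with the block as well, at 0.50 (adjusted p = 0.0361) and -0.43 (adjusted p = 0.0325). In CEM/BTZ7 relative to CEM/WT_BTZ the block also called NARS1 (-0.38, adjusted p = 0.0467) and TARS1 (-0.43, adjusted p = 0.038), for asparagine and threonine, lower and LARS1, for leucine, higher (0.84, adjusted p = 0.0225), none of them called without it. The second LARS1 probe ran the other way (-0.53, against 0.89 for the brighter one), and a second, dimmer SARS1 probe gave -1.04 (adjusted p = 0.0447), against -0.19 for the probe used.

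By the probes used, the synthetases that changed least after BTZ were RARS1, SARS1, KARS1 and YARS1. Their log2 fold changes were -0.01 to 0.03 in CEM/WT_BTZ relative to CEM/WT, although KARS1 and YARS1 had SEs of 0.405 and 0.431. The dimmer SARS1 probe gave 0.51 in that comparison (adjusted p = 0.311 over all probes). The remaining ones, EPRS1, GARS1, HARS1 and MARS1, ranged from -0.06 to 0.43 there, and none was called in any comparison. A dimmer MARS1 probe gave 0.48 (adjusted p = 0.5 over all probes).

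In the drug-free CEM/BTZ-200 sample 4 synthetases, singled out after their values were seen, stood at the bottom of the 11 samples. The share of all genes that were lowest in this sample was not computed, so the count is no result about synthetases. EPRS1, which charges both glutamate and proline tRNA, had 12.46 in CEM/BTZ-200 against 13.68 to 14.31 in CEM/WT (log2 fold change -1.46, adjusted p = 0.105). NARS1 had 11.39 against 12.35 to 12.88 (-1.14, adjusted p = 0.176), RARS1 had 13.64 against 14.56 to 14.58 (-0.93, adjusted p = 0.0898), and TARS1 had 13.03 against 13.78 to 14.07 (-0.95, adjusted p = 0.25). None of the 4 was called. CEM/BTZ200 had the next lowest level of NARS1 (11.92), RARS1 (13.86) and TARS1 (13.29). These were the 2 samples with the lowest median intensity, whose part in the result was not tested. Their dyes differed, and whether they shared an array was not examined.

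Composite motifs were common in the start regions of the synthetases. RefSeq windows were listed for 27 members, and 12 of them (44.4%) held TGATGNAA on either strand, namely 7 synthetases, 4 transporters and ASNS, against 4.46% of all genes with a window. The stricter TGATGCAA, which is contained in the first motif, was in 8 members (29.6%) and in 1.08% of all genes. Windows of 40 bases are shown for the synthetases AARS1, IARS1, NARS1 and TARS1, which the block called, and for the carrier SLC1A4, with the match in capitals (TTGCATCA is TGATGCAA read from the other strand).
AARS1: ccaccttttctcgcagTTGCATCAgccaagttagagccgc
IARS1: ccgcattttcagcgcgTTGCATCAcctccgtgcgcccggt
NARS1: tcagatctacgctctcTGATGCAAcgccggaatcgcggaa
TARS1: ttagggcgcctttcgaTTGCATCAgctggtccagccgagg
SLC1A4: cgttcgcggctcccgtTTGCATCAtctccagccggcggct
They lie at chr16:70289670-70289709 (minus strand), chr9:92293687-92293726 (minus), chr18:57621799-57621838 (minus), chr5:33440951-33440990 (plus) and chr2:64989376-64989415 (plus) of GRCh38.p14, that of SLC1A4 at the second of its listed starts. In AARS1 the match began 187 bases before the start, and in the other 4 it began between 13 bases before and 15 after it. A match is a string of letters and not a measured binding site.

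Of the 12 genes with a match, 10 were measured, and 9 of these 10 had a positive log2 fold change in CEM/WT_BTZ relative to CEM/WT, with a median of 0.46, although only ASNS was called. The exception was SLC1A4 (-0.24 on the probe used, 0.45 on its dimmer probe). Of the 14 measured members whose windows held no match, among them CTH and WARS1, 8 had a positive value and the median was 0.02. The 6 measured members with no listed window had a median of -0.22. In CEM/BTZ7 relative to CEM/WT_BTZ, which shares the CEM/WT_BTZ samples, 7 of the 10 were negative (median -0.37), against 8 of the 14 (median -0.06). The medians over all genes were -0.02 and 0.01, and shares of positive values over all genes were not computed. The median over all members in the first comparison was 0.50 without replicate 1 of CEM/WT and -0.02 without replicate 2. This split was not repeated in those settings, and the part of the motif was not tested.

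Other genes of the pathway, taken from lists by function, held calls in both directions. Of 18 further enzymes measured, 2 were called higher in CEM/WT_BTZ than in CEM/WT, GCLC of glutathione synthesis (log2 fold change 1.11) and the aspartate aminotransferase GOT1 (0.90), and 3 lower, PYCR3 of proline synthesis (-1.92) and the folate enzymes SHMT1 (-1.57) and MTHFD1 (-1.33). In CEM/BTZ7 6 were called higher than in CEM/WT_BTZ and 1 lower. PYCR3 (1.76), SHMT1 (1.70), MTHFD1 (2.01) and GOT1 (-0.93) were among these, as was ALDH18A1 (1.86), which opens the route that PYCR1 completes.

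Of 15 further transporters, 2 were called higher and 4 lower in CEM/WT_BTZ than in CEM/WT. SLC7A11, the cystine importer, had the largest log2 fold change (4.62, SE 0.297, adjusted p = 0.00143). The amino acid carrier SLC36A4 was also higher (0.90), while the taurine carrier SLC6A6 (-1.46), the mitochondrial glutamate carrier SLC25A22 (-1.28), SLC43A2 (-1.23) and SLC7A3 (-0.97) were lower. In CEM/BTZ7, SLC7A11 was lower than in CEM/WT_BTZ (-3.07, adjusted p = 0.00167) and higher than in CEM/WT (1.55, adjusted p = 0.0466).

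Among 19 mitochondrial synthetases, IARS2 (-0.99) was the only one called in CEM/WT_BTZ relative to CEM/WT, and in CEM/BTZ7 relative to CEM/WT_BTZ 3 were called higher, MARS2 (3.10), VARS2 (0.99) and IARS2 (0.94), and 2 lower, HARS2 (-0.88) and RARS2 (-0.82). Of 3 other cytosolic synthetase genes and scaffolds, the phenylalanyl subunit FARSA was lower in CEM/WT_BTZ than in CEM/WT (-0.98) and higher in CEM/BTZ7 than CEM/WT_BTZ (1.11). In CEM/BTZ7 relative to CEM/WT limma called 0 in both of these lists. There 0 mitochondrial synthetases and 1 of the 3 others were past an unadjusted p of 0.05, as were 2591 of the 17372 genes.

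The sensors and regulators of amino acid supply held more calls than the members. Of 23 measured, 8 were called higher and 1 lower in CEM/WT_BTZ than in CEM/WT. The largest were PPP1R15A (GADD34, which restores eIF2 activity, log2 fold change 4.74), DDIT3 (CHOP, 3.83), ATF3 (2.84), CEBPB (2.59) and the pseudokinase TRIB3 (2.40), and the lower one was MYC (-2.15). ATF4 itself, which is known to be controlled mainly in translation, had 0.69 (SE 0.253, adjusted p = 0.117), and EIF2AK4 had -0.23 (adjusted p = 0.444). In CEM/BTZ7 relative to CEM/WT_BTZ 10 were called lower, among them all 5 named above (-4.31, -4.14, -3.46, -2.40 and -2.45), and 2 higher, MYC (2.96) and the mTORC1 activator RRAGD (2.30). Relative to CEM/WT, 0 of the 23 were called in CEM/BTZ7, with 2 higher and 2 lower at an unadjusted p under 0.05. Of the 17372 genes, 2591 passed that limit in either direction.

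**Figure D4:**
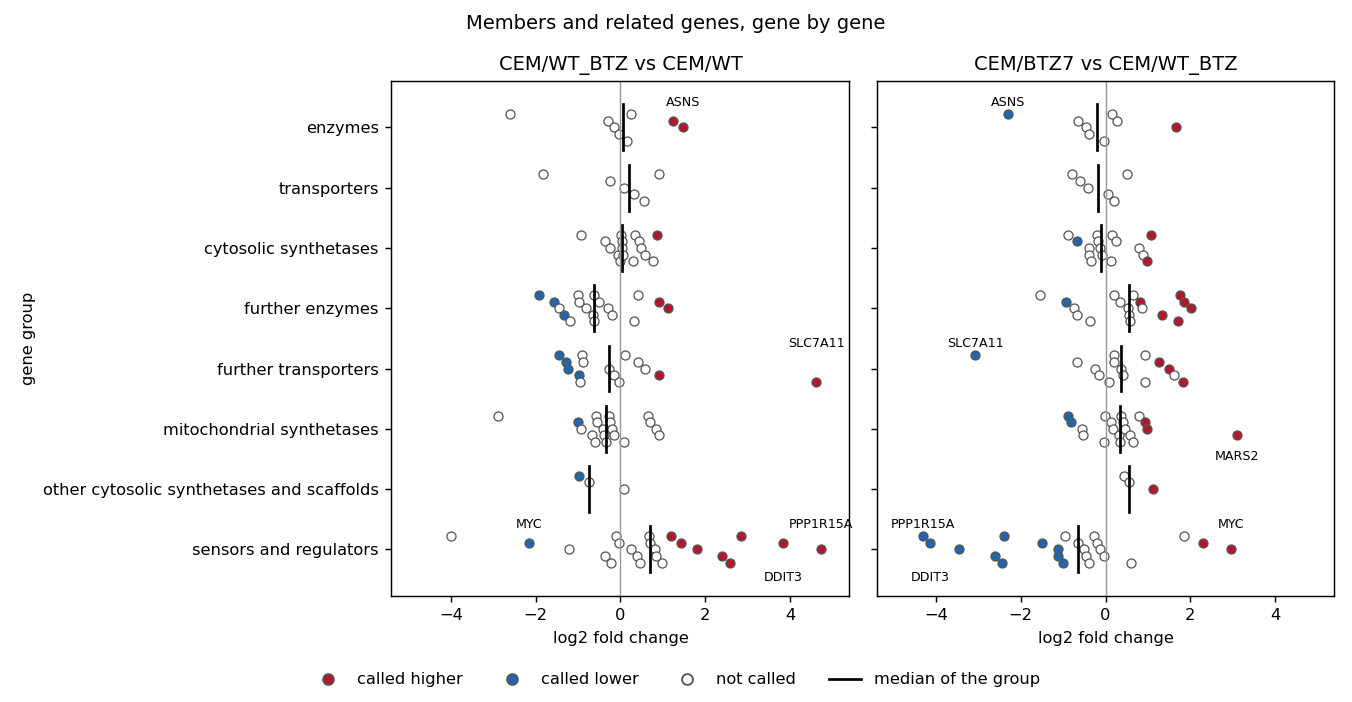
Log2 fold change of each member (top 3 rows) and of each related gene (lower 5 rows) in CEM/WT_BTZ relative to CEM/WT (left) and in CEM/BTZ7 relative to CEM/WT_BTZ (right), with filled points for called genes and a black line at the median of each row. The medians of the 3 member groups lie between 0.04 and 0.19 on the left, whereas SLC7A11 and several regulators lie beyond 2 on the left and below -2 on the right.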

How the data were processed

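RNA of 11 samples was labelled with Cy3 or Cy5, per the labels, and hybridized to Agilent arrays. Per the paper's methods, a Cy3 and a Cy5 sample went onto an array together, and the fit did not use which samples shared one. The deposited intensities are processed spot signals that the authors extracted with Agilent Feature Extraction, not yet scaled across arrays. The deposited log2 values were made by the authors with limma (background correction, loess, quantile) and served as an alternative, and tool versions are not given in the sources used here. Intensity columns 1, 2 and 3 of CEM/BTZ7 matched log2 columns 2, 3 and 1 best (Spearman 0.993, 0.995 and 0.992), and the intensity table's own numbering and dyes were used.

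Here 45015 spots were quantile-normalized and averaged to 41000 probes. A probe had to exceed the 95th percentile of 153 negative controls in 2 or more samples (37422 did), and each gene was represented by its brightest probe, named through the platform annotation and RefSeq (GRCh38.p14). Groups and dye were fitted over all samples with limma 3.58.1 in R 4.3.3 (4 residual and 2.44 prior degrees of freedom, 0 genes called for dye), with 2-sided p-values and Benjamini-Hochberg adjustment across 17372 genes. The scripts were tested on simulated data.

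Per-sample values are given for members called with an absolute log2 fold change over 1 in the first 3 comparisons and for others where stated, and up to 5 called genes of each related list are named by size in CEM/WT_BTZ relative to CEM/WT. Genes named beyond these rules, or given per-sample values beyond them, were chosen after their values were seen. Members and lists were chosen with earlier results of these data known. The labels number the replicates of CEM/WT_BTZ, CEM/BTZ7 and CEM/WT without saying that a number marks a shared batch, and give none to the 3 single samples. Deviations of same-numbered samples correlated at 0.297 to 0.541 in all 7 pairs, so values with the replicate number as a block stand beside the results that they change, for comparisons among these 3 groups only. CEM/WT has no replicate 3, so block differences from CEM/WT rest mainly on replicates 1 and 2. The block also leaves fewer residual degrees of freedom. Markers of B cells (3 to 5 of 5 above background), of myeloid cells (3 to 5 of 5) and of epithelium (5 of 6) were examined as well.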

Additional observations from a re-analysis of the deposited data

How the results depend on the processing

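No call of a member reversed its direction under any setting tried, and member counts moved as follows. With the replicate number as a block, 9 members were called in CEM/WT_BTZ relative to CEM/WT, 6 higher and 3 lower (3 without it). In CEM/BTZ7 relative to CEM/WT_BTZ 13 were called, 4 higher and 9 lower (5 without it, 3 higher and 2 lower). In CEM/BTZ7 relative to CEM/WT 4 were called, 2 higher and 2 lower (1 without it). The block could not be fitted for comparisons with CEM/BTZ100, CEM/BTZ200 or CEM/BTZ-200, whose labels carry no replicate number. Over all genes the block called 6570 in CEM/WT_BTZ relative to CEM/WT, against 2714 without it, 7695 against 3877 for CEM/BTZ7 over CEM/WT_BTZ, and 1487 against 612 in CEM/BTZ7 relative to CEM/WT. Without CEM/WT replicate 1 or 2, 257 and 393 genes were called in CEM/WT_BTZ relative to CEM/WT. A fit of only the 2 groups compared called 1 member in CEM/WT_BTZ relative to CEM/WT and 2 in CEM/BTZ7 relative to CEM/WT_BTZ. Over all genes that fit called 753 and 2918. The deposited log2 values gave 8 in CEM/BTZ7 relative to CEM/WT_BTZ, 3 higher and 5 lower, and 2 in CEM/BTZ100 relative to CEM/WT. Over all genes they gave 3721 and 460. In CEM/BTZ-200 relative to CEM/WT the count was 2 after normexp background correction (1031 over all genes) and 3 without the dye term (1063). It was 2 with the dyes of CEM/BTZ7 taken from the match to the deposited log2 values (443 over all genes). Those dyes gave 3 for CEM/BTZ7 over CEM/WT_BTZ (3460 over all genes). Leaving out the samples of CEM/BTZ200 and CEM/BTZ-200 before normalization, chosen after seeing the data, kept the counts at 3, 5 and 1 in the first 3 comparisons. Leaving out 1 replicate at a time gave 0 to 3 members in CEM/WT_BTZ relative to CEM/WT, 1 to 6 for CEM/BTZ7 over CEM/WT_BTZ, 0 to 2 in CEM/BTZ7 and in CEM/BTZ100, 0 to 1 in CEM/BTZ200 and in CEM/BTZ-200, each relative to CEM/WT, and 0 between CEM/BTZ200 and CEM/BTZ-200. The causes were not tested. Scaling to the 75th percentile moved the median of all genes to -0.11 in CEM/BTZ7 relative to CEM/WT and to -0.1 in CEM/BTZ100 relative to CEM/WT. Precision is limited by 11 samples, with 1 sample for each of 3 groups.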
